A study of Mus musculus with 4 samples.

Results

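Genes of Notch signalling and of the choice of a secretory fate, 10 in all, were followed in cells sorted from the mouse small intestine: the receptors Notch1 and Notch2, the ligands Dll1, Dll4 and Jag1, the nuclear mediator Rbpj, the target Hes1, and the secretory factors Atoh1, Gfi1 and Neurog3. They were taken by gene symbol, and all 10 members had 1 array feature each that carried a single symbol, out of 30713 genes so named. RNA was hybridised to 4 Clariom D mouse arrays with 1 array per group, and values are log2 signals. The groups were GFP-positive intestinal stem cells (ISCs) labelled LncGata6 mut, GFP-positive ISCs labelled Ehf knockout (Ehf-/-), wild-type GFP-positive ISCs, and wild-type GFP-negative cells (non-ISCs). Per the labels all came from 8 week-old Lgr5GFP-CreERT2 mice, in which GFP and CreERT2 are driven from Lgr5, so each genotype also carries that allele. The labels do not give the number of mice behind an array or the nature of the LncGata6 lesion. By their labels, the comparisons set stem cells against non-stem cells, and LncGata6 mutant or Ehf knockout stem cells against wild-type ones. LncGata6 is a long noncoding RNA next to Gata6, and Ehf is an epithelial ETS transcription factor. With single arrays no difference has an error, a p-value or a check against replicates.

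Notch receptors bind Delta-like or Jagged ligands on a neighbouring cell and are then cut, and the released intracellular part joins Rbpj in the nucleus to switch on targets such as Hes1. In intestinal crypts Hes1 represses Atoh1, so that cells with active Notch stay progenitors or become absorptive. Cells that escape it express Atoh1 and Delta-like ligands and become Paneth, goblet or endocrine cells, with Gfi1 acting after Atoh1 and Neurog3 starting the endocrine branch.

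The arrays did not all match their labels. Ehf read 5.09, 3.03, 6.99 and 3.75 on the LncGata6 mutant, Ehf knockout, wild-type ISC and non-ISC arrays, and Lgr5 read 3.03, 2.79, 9.41 and 3.03 in the same order. The stem cell marker Lgr5 thus reached its limit on the wild-type ISC array only, although both mutant arrays are labelled Lgr5 GFP-positive. Ehf was low on the knockout array, but so were the epithelial genes below, so this value alone does not check the genotype. Gata6os, the symbol under which LncGata6 is listed, stood under the control limit on all 4 arrays (4.37, 4.04, 4.92 and 3.14), so it does not check the mutation. Of 14 general epithelial genes, 13, 0, 14 and 12 reached the control limit described below, and the Ehf knockout array instead carried 13 of 13 neutrophil genes. The non-ISC array carried 10 of 10 hepatocyte and 10 of 10 kidney tubule genes, and the LncGata6 mutant array 10 of 10 genes of T cells and intraepithelial lymphocytes. The wild-type ISC array was not of stem cell genes alone. It carried 7 of 8 Paneth, 9 of 12 goblet and 9 of 15 enterocyte products, and the LncGata6 mutant array 6, 9 and 15 of these. The collection protocol of all 4 samples names a sort for ILCreg, a regulatory innate lymphoid population, and of 8 innate lymphoid genes 2, 2, 1 and 1 reached the limit. In bulk RNA such as this, fewer cells of a type and less RNA per cell cannot be told apart.

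**Figure D1:**
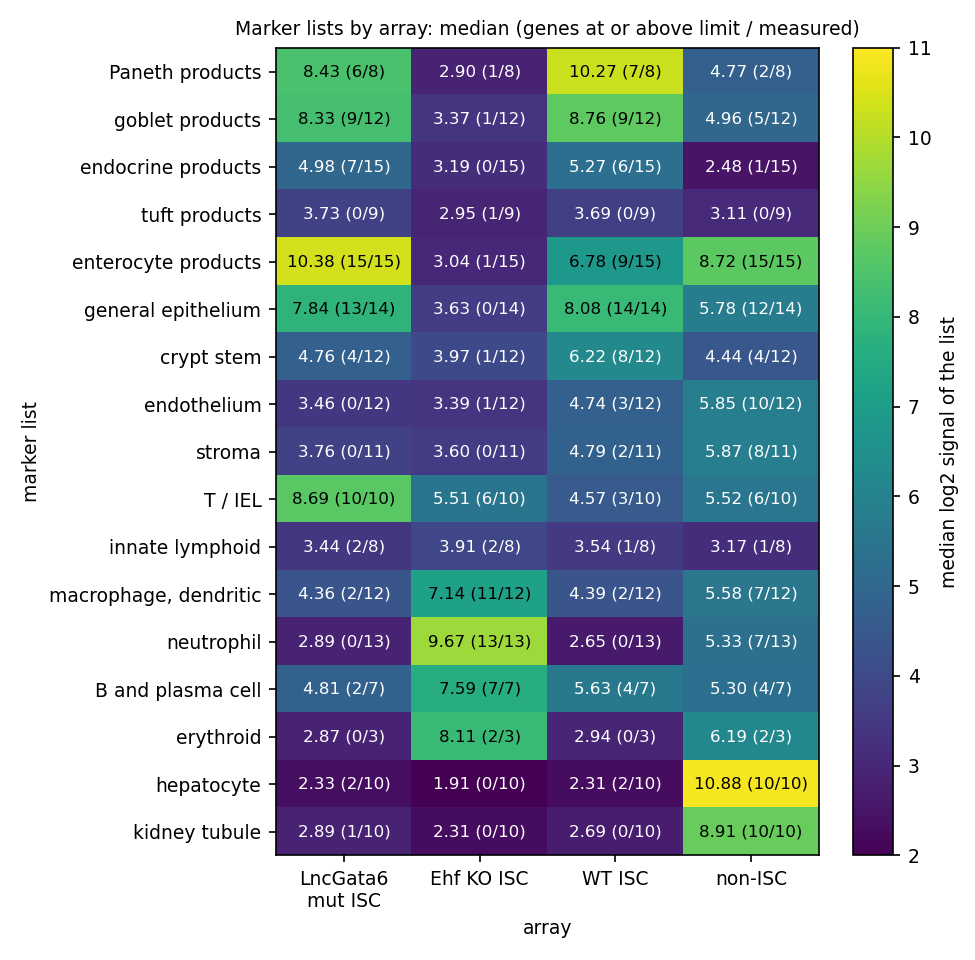
Median log2 signal of 17 cell type marker lists (rows) on the 4 arrays (columns), with the number of genes at or above the negative-control limit out of those measured. General epithelial genes have a median of 3.63 with 0 of 14 genes at the limit on the Ehf knockout array, where neutrophil genes have a median of 9.67.

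The stretches upstream of 4 of the genes are shown because their values contrast: Atoh1 and Neurog3 read higher on wild-type ISCs than on non-ISCs, Notch2 read lower, and Rbpj was nearly level. As given below, the Atoh1 and Neurog3 values on these arrays lay under the control limits, and the Notch2 call was lost on rescaling. Each is the 250 bases before a RefSeq start site (GRCm38.p6), written 5′ to 3′ on the gene's strand, which is the plus strand for all 4. Capitals mark 3 short motifs searched on both strands: TGGGAA, the core bound by RBPJ; CACNAG, the N box bound by HES1; and CANNTG, the E box bound by factors such as ATOH1 and NEUROG3. The windows lie at chr6:64728875-64729124 for Atoh1, chr10:62132840-62133089 for Neurog3, chr3:98013288-98013537 for Notch2 and chr5:53590096-53590345 for Rbpj.
Atoh1: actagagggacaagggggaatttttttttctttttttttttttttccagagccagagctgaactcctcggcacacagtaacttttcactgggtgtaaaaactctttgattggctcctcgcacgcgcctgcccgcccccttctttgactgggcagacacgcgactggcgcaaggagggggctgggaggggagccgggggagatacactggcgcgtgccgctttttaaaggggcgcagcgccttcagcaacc
Neurog3: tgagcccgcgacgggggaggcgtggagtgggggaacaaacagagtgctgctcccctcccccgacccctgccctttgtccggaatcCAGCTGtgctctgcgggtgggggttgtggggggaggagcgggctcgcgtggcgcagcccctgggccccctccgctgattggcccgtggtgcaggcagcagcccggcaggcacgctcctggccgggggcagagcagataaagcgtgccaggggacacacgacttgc
Notch2: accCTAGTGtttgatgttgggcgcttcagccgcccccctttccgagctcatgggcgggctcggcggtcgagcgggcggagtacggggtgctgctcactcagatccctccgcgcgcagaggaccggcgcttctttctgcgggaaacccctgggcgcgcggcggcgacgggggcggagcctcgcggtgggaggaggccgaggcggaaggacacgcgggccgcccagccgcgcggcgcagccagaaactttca
Rbpj: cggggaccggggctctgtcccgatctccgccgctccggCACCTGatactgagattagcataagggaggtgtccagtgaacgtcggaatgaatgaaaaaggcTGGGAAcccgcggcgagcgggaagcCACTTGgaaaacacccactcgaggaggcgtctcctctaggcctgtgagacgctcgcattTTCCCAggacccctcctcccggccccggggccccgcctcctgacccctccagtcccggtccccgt

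The Rbpj window held 2 RBPJ cores, starting at positions -149 and -65 from the start site, with the one at -65 on the minus strand, and 2 E boxes at -212 and -124. Neurog3 held 1 E box at -165, Notch2 held 1 N box at -247, and Atoh1 held none of the 3 motifs. Over 32817 windows of the same length, the RBPJ core occurred in 21.6%, the N box in 36.7% and the E box in 66.2%. The table gave 12 windows for 9 of the 10 genes, with 2 for each of Dll1, Gfi1 and Rbpj (those of Rbpj overlap and share the core nearer the start), and Hes1 had no entry. Dll1, with 3 E boxes, had the most in a single window, and apart from Rbpj no window held an RBPJ core. A match to these letters is a description of the window and not a bound site.

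Most of the 10 genes lay near or under background. The control limit of an array was set at the 95th percentile of its 5222 negative-control features, giving 5.31 (LncGata6 mutant), 5.19 (Ehf knockout), 5.62 (wild-type ISC) and 5.16 (non-ISC). Rbpj reached it on all 4 arrays, while Dll1, Dll4, Jag1, Gfi1 and Neurog3 reached it on none. Notch2 and Hes1 reached it on 2 arrays each, and Notch1 and Atoh1 on 1 each. Over all genes, 31.0% reached the limit on at least 1 array, against 5 of the 10 members. The range over the 4 arrays was at least 1 for 7 of the 10 genes, with a median range of 1.33, beside 0.70 over all genes and 1.28 over genes that reached the limit somewhere. Below, a gene is called higher or lower where its values on 2 arrays lie 1 or more apart on the log2 scale, a 2-fold change, with the brighter of them at or over its limit. Where the dimmer value lies under its limit, the limit takes its place and the fold is a lower bound.

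**Figure D2:**
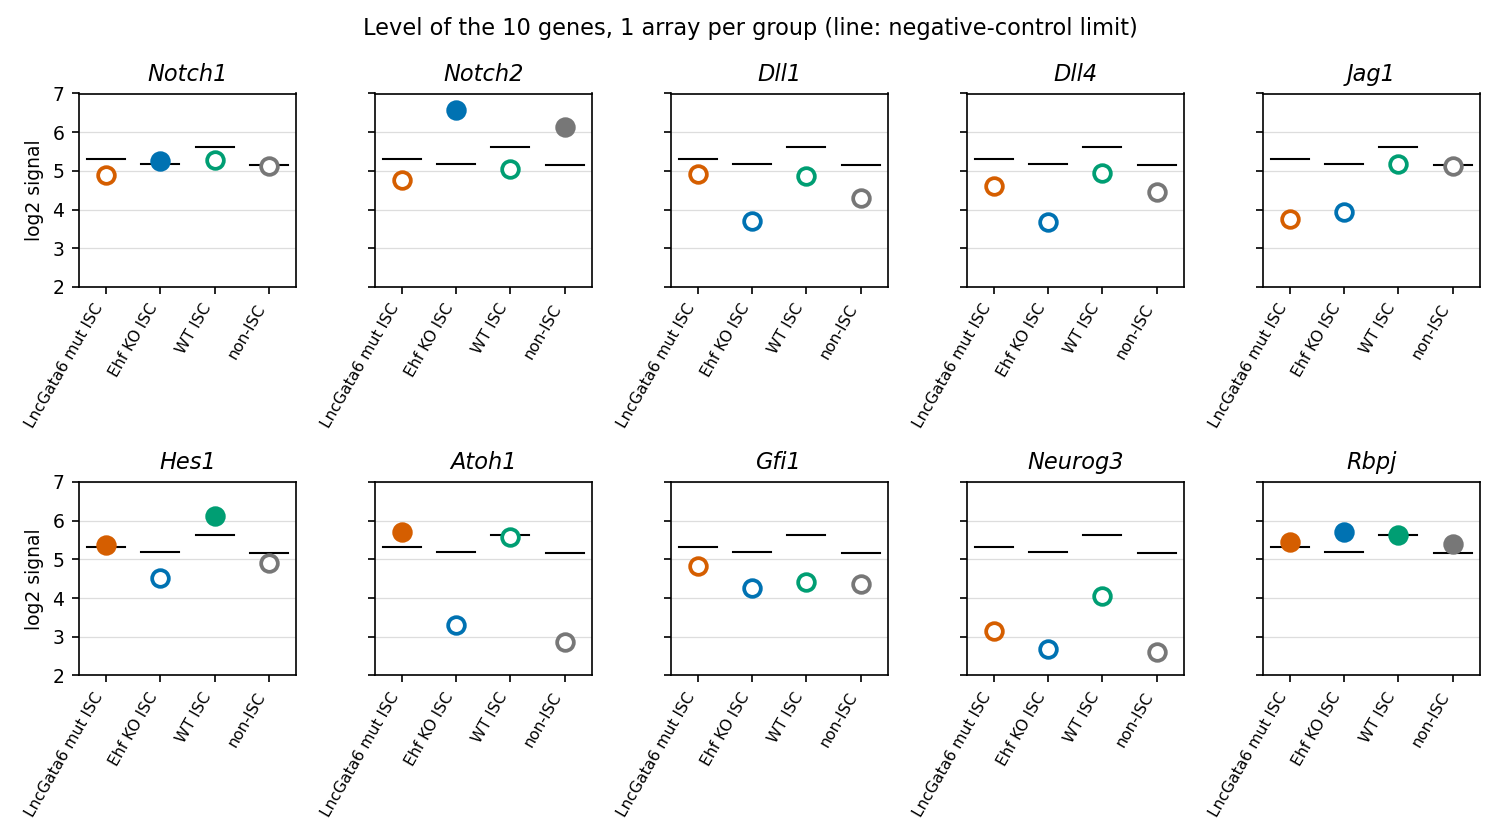
Log2 signal (vertical axis) of each gene on the LncGata6 mutant, Ehf knockout, wild-type ISC and non-ISC arrays (horizontal axis), 1 array per group, with a short line at each array's negative-control limit. Filled points reach the limit and open points do not; Rbpj is filled throughout, and Notch2 is filled on the Ehf knockout (6.58) and non-ISC (6.14) arrays only.

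The receptors parted from each other. Notch2, the receptor that Notch1 acts beside in crypts, read 4.77 (LncGata6 mutant), 6.58 (Ehf knockout), 5.05 (wild-type ISC) and 6.14 (non-ISC). It was thus above the limit on the Ehf knockout and non-ISC arrays and under it on the other two. Notch2 was called higher on the Ehf knockout array than on the wild-type ISC array, by 1.53 and at least 1.94-fold, and lower on the LncGata6 mutant array than on the Ehf knockout array, by -1.82 and at least 2.41-fold. Of macrophage and dendritic genes, 11 of 12 reached the limit on the Ehf knockout array and 2 of 12 on the wild-type ISC array. Their medians there were 7.14 and 4.39. On the LncGata6 mutant array 2 of these 12 genes reached it (median 4.36), and on the non-ISC array 7 (median 5.58). Neutrophil genes had medians of 2.89, 9.67, 2.65 and 5.33 over the LncGata6 mutant, Ehf knockout, wild-type ISC and non-ISC arrays. Erythroid genes had 2.87, 8.11, 2.94 and 6.19. B and plasma cell genes had 4.81, 7.59, 5.63 and 5.30, lower on non-ISCs than on wild-type ISCs. T cell and intraepithelial lymphocyte genes were instead highest on the LncGata6 mutant array (median 8.69). The part of these cell types in the Notch2 values was not tested. On the wild-type ISC array Notch2 was called lower than on the non-ISC array, by -1.09 and at least 1.43-fold, but this call ended when the arrays were rescaled (-0.97, -0.85 and -0.98 after median centring, quantile normalization and cyclic loess).

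Notch1, the main receptor of crypt progenitors, hardly varied, with 4.88 (LncGata6 mutant), 5.26 (Ehf knockout), 5.27 (wild-type ISC) and 5.13 (non-ISC). Only the Ehf knockout value reached its limit, by 0.07, and no Notch1 difference came near 1. Notch3 and Notch4, the receptors of mural and endothelial cells, stayed under the limit on all 4 arrays, between 3.63 and 4.66.

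The 3 ligands were dim throughout. Jag1, a ligand of both receptors, read 3.77 (LncGata6 mutant), 3.94 (Ehf knockout), 5.17 (wild-type ISC) and 5.12 (non-ISC). The mutant arrays were both lower than the wild-type ISC array, by -1.40 for LncGata6 and -1.23 for Ehf, with every value under its control limit, so no fold is given. Endothelial genes were also lower on both mutant arrays, with medians of 3.46, 3.39, 4.74 and 5.85 over the 4 arrays, as were stromal genes (3.76, 3.60, 4.79 and 5.87). Their part in the Jag1 values was not tested.

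Dll1 and Dll4, the Delta-like ligands that secretory cells present to their neighbours, were lowest on the Ehf knockout array. Dll1 read 4.92 (LncGata6 mutant), 3.71 (Ehf knockout), 4.87 (wild-type ISC) and 4.30 (non-ISC). Dll4 read 4.61 (LncGata6 mutant), 3.68 (Ehf knockout), 4.95 (wild-type ISC) and 4.45 (non-ISC). Against wild-type ISCs the Ehf knockout values were lower by -1.16 for Dll1 and -1.27 for Dll4, again between values under the limits. Jag2, Dll3, Dlk1, Dlk2 and Dner, the further ligands and ligand-like proteins, also reached the limit nowhere.

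Rbpj, which carries the Notch signal to DNA, was the steadiest of the 10 genes. It read 5.46 (LncGata6 mutant), 5.71 (Ehf knockout), 5.64 (wild-type ISC) and 5.40 (non-ISC), a range of 0.31. The wild-type ISC value exceeded its limit by only 0.01. Over the 4 comparisons its folds lay between 1.05 and 1.19, the last for LncGata6 mutant against Ehf knockout (a difference of -0.25).

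Hes1, the repressor through which Notch holds back Atoh1, was brightest on wild-type ISCs. It read 5.37 (LncGata6 mutant), 4.52 (Ehf knockout), 6.12 (wild-type ISC) and 4.90 (non-ISC). The wild-type ISC array stood above the other 3, and the LncGata6 mutant array lay between it and the others. Hes1 was called higher on wild-type ISCs than on non-ISCs, by 1.21 and at least 1.94-fold. It was called lower on the Ehf knockout array than on wild-type ISCs, by -1.60 and at least 1.90-fold. On the LncGata6 mutant array it was lower than on wild-type ISCs by -0.75 (1.68-fold), under the size needed for a call. The epithelial adhesion gene Epcam read 10.65, 3.78, 9.70 and 7.22 over the same 4 arrays. Hes1 and Epcam were thus both low on the Ehf knockout array, where no general epithelial gene reached the limit, and the part of epithelial content in the Hes1 values was not tested. Olfm4, a stem cell glycoprotein gene known to respond to Notch, read 8.06, 5.86, 10.81 and 5.42, and was also brightest on wild-type ISCs. The 12 crypt stem cell genes, which include Olfm4, had medians of 4.76, 3.97, 6.22 and 4.44 over these arrays. None of 9 further genes, of the Hes and Hey families with Nrarp, was called in any comparison. Apart from Hes6 on the non-ISC array (5.65) their values lay under the limits, so the others could not be called. The part of stem cell content in the Olfm4 and Hes1 values was not tested.

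Atoh1, the factor that commits crypt cells to a secretory fate, had the widest range of the 10 genes (2.83), but with 3 of its 4 values under the control limit. It read 5.70 (LncGata6 mutant), 3.29 (Ehf knockout), 5.57 (wild-type ISC) and 2.87 (non-ISC). The values formed a bright pair, LncGata6 mutant and wild-type ISCs, and a dim pair, Ehf knockout and non-ISCs. Only the LncGata6 mutant value reached its limit, and the wild-type ISC value missed its own by 0.05. Atoh1 was called higher on the LncGata6 mutant array than on the Ehf knockout array, by 2.41 and at least 1.43-fold. The difference of 2.70 between wild-type ISCs and non-ISCs and that of -2.28 between Ehf knockout and wild-type ISCs were between values under the limits and were not called. Both would be called with the array's 75th percentile as the limit, as would the Jag1 differences of both mutants from wild-type ISCs. Against wild-type ISCs the LncGata6 mutant array differed in Atoh1 by 0.13. General epithelial genes had medians of 7.84, 3.63, 8.08 and 5.78 over the LncGata6 mutant, Ehf knockout, wild-type ISC and non-ISC arrays. Of these genes 12 of 14 reached the limit on the non-ISC array and 0 of 14 on the Ehf knockout array. Atoh1 lay under the limit on both, so the order of its values there is not read. Goblet products had medians of 8.33, 3.37, 8.76 and 4.96 over the 4 arrays, and Paneth products 8.43, 2.90, 10.27 and 4.77. The part of epithelial, goblet or Paneth cells in the Atoh1 values was not tested.

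Gfi1, a repressor that acts after Atoh1 and is also used by blood cells, was nearly level. It read 4.82 (LncGata6 mutant), 4.27 (Ehf knockout), 4.42 (wild-type ISC) and 4.35 (non-ISC). Neurog3, which starts the endocrine branch, was dim but brightest on wild-type ISCs, with 3.14 (LncGata6 mutant), 2.69 (Ehf knockout), 4.04 (wild-type ISC) and 2.59 (non-ISC). All 8 of these values lay under the limits, so they allow no fold.

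**Figure D3:**
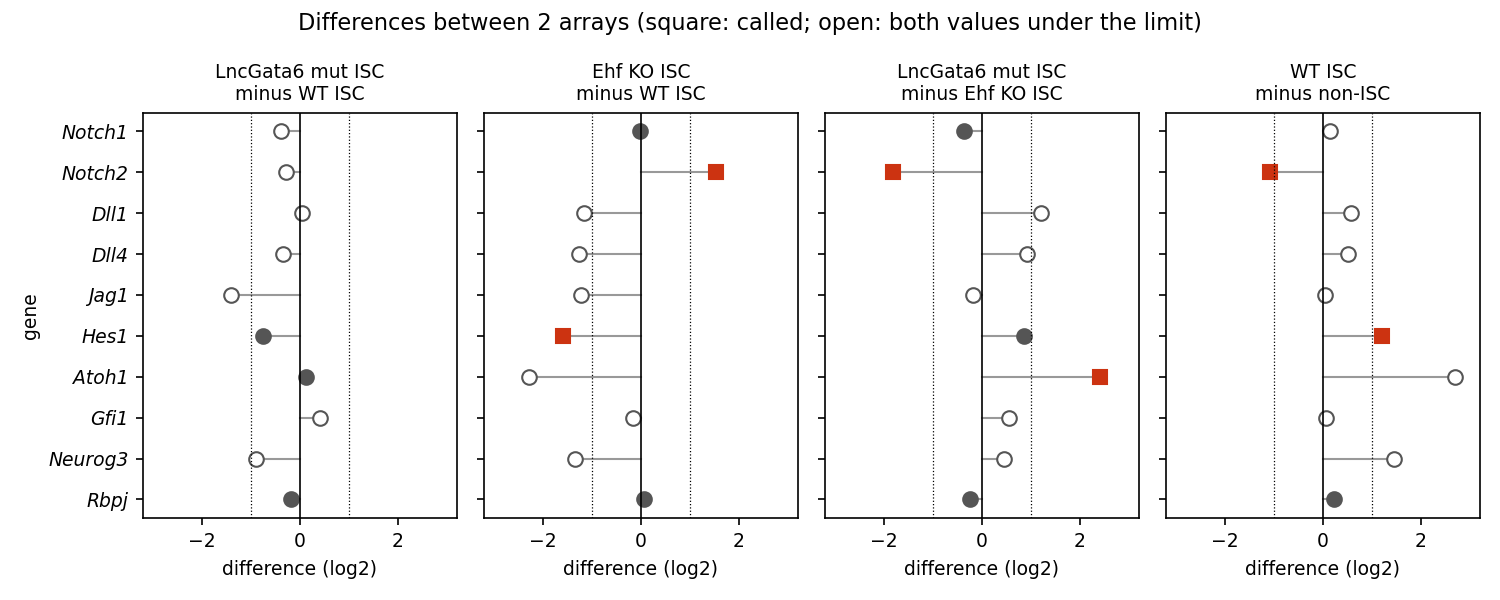
Difference of log2 values (horizontal axis) for the 10 genes (rows) in 4 comparisons of 2 arrays, with dotted lines at the size needed for a call. Squares are called, and open points have both values under their limits; calls are confined to Notch2, Hes1 and Atoh1, and LncGata6 mutant against wild-type ISCs has none.

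Counted by comparison, calls among the 10 genes were few. Between LncGata6 mutant and wild-type ISCs 0 were called in either direction, against 2.58% of all genes called higher and 2.53% called lower. Of genes that reached the limit on either array those shares were 11.9% and 11.7%, and only Hes1, Atoh1 and Rbpj among the members did so. Between Ehf knockout and wild-type ISCs 1 gene was higher (Notch2) and 1 lower (Hes1), beside 2.16% higher and 3.75% lower over all genes, and 10.4% and 18.1% over those that reached the limit on either array. Between LncGata6 mutant and Ehf knockout 1 was higher (Atoh1) and 1 lower (Notch2), beside 5.48% and 3.03% of all genes, and 23.5% and 13.0% of those at the limit. Between wild-type ISCs and non-ISCs 1 was higher (Hes1) and 1 lower (Notch2), beside 3.01% and 7.28% of all genes, and 10.7% and 25.9% of those at the limit. With the 75th percentile as limit, the background was 3.84% higher for wild-type ISCs against non-ISCs, and 3.02% and 5.30% lower for LncGata6 mutant and for Ehf knockout against wild-type ISCs. Single calls among 10 genes are not read as a departure from these shares. Both comparisons of a mutant use the same wild-type ISC array.

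The median difference of the 10 genes was -0.31 for LncGata6 mutant and -1.20 for Ehf knockout against wild-type ISCs, 0.50 for LncGata6 mutant against Ehf knockout, and 0.37 for wild-type ISCs against non-ISCs. Over all genes the medians were -0.06, -0.20, 0.13 and -0.11. Median centring, quantile normalization and cyclic loess each brought these overall medians to within 0.05 of 0. The lower median of the Ehf knockout array rests on genes under the limit, since the 4 genes that reached it on either array had a median of 0.03.

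A further 75 genes of the pathway and of secretory fate were listed in 10 groups by role, and 70 of them were analysed here. Of the 8 receptor cleavage genes, several reached the limit throughout. Adam10, the protease that makes the first cut, read 7.77 (LncGata6 mutant), 7.33 (Ehf knockout), 7.43 (wild-type ISC) and 7.08 (non-ISC). The γ-secretase subunits Psenen (between 8.19 and 8.97) and Ncstn (between 6.16 and 7.12) were likewise above the limit on all 4 arrays. In this group 1 gene was called in any comparison, the γ-secretase subunit Aph1c. It was lower at 3.37 on wild-type ISCs, against 5.30 on non-ISCs. No fold is given, since 5.30 also lies under the wild-type ISC limit of 5.62. Aph1b and Aph1c are near-identical copies, and how the array's probes divide between them is not known here.

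Of 9 genes for receptor turnover, 2 were called higher on the LncGata6 mutant array than on wild-type ISCs. Numb, which antagonises Notch at the membrane, read 6.71 on the LncGata6 mutant array and 5.08 on the wild-type ISC array (at least 2.13-fold). The ubiquitin ligase Dtx1, a Notch regulator that lymphocytes also express, read 6.02 on the LncGata6 mutant array and 4.70 on the wild-type ISC array (at least 1.32-fold). Both were also called higher than on the Ehf knockout array (5.07 for Numb and 4.90 for Dtx1), together with the ligase Itch (6.60 against 5.37, 2.34-fold). T cell and intraepithelial lymphocyte genes were also highest on the LncGata6 mutant array. Their median was 8.69 there, against 5.51 for Ehf knockout and 4.57 for wild-type ISCs, and enterocyte genes had medians of 10.38, 3.04 and 6.78. On the non-ISC array these lists had medians of 5.52 and 8.72. Numb (5.84) and Itch (6.14) reached the limit on that array too, and Dtx1 (4.80) did not. The part of either cell type was not tested.

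Other groups of the pathway gave no call. None of the 9 genes of the Hes and Hey families with Nrarp was called in any comparison. Hes6 on the non-ISC array, at 5.65, was the single reading of theirs to reach a limit. No gene was called among 5 for receptor glycosylation, 4 for ligand endocytosis and 8 for nuclear cofactors either. In each comparison at most 1 glycosylation gene, at most 1 endocytosis gene and between 3 and 5 cofactors reached the limit on either array. Few calls were thus possible in the first groups, and their absence does not show level expression. Among the cofactors, the acetyltransferase Ep300 (between 6.52 and 6.88) and Snw1 (between 5.80 and 6.46) stood above the limit on all 4 arrays. The 8 measured endocrine factors, such as Insm1, Pax6 and Rfx6, reached the limit nowhere, with medians of 3.09, 2.62, 3.35 and 2.58 on the LncGata6 mutant, Ehf knockout, wild-type ISC and non-ISC arrays.

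Early secretory factors held most of the calls. On wild-type ISCs 5 of 12 were called higher than on non-ISCs and 0 lower: Sox9 (6.55 against 4.68), Klf4 (7.19 against 5.76), Sox4 (5.64 against 4.34), Creb3l1 (6.44 against 5.22) and Xbp1 (7.80 against 6.69). Sox9 is needed for Paneth cells and is also 1 of the 12 crypt stem cell genes listed here. Klf4 and Creb3l1 mark goblet cells, and Xbp1 builds the secretory pathway. In the same comparison 12 of 14 general epithelial genes (median difference 1.97) and 6 of 12 crypt stem cell genes were called higher. Hepatocyte genes (8 of 10) and kidney tubule genes (10 of 10) were called lower. The part of these cell types in the calls was not tested. On the Ehf knockout array 5 of 12 were called lower than on wild-type ISCs and 0 higher. Among them were Sox9 (4.05 against 6.55, at least 2.57-fold), Foxa1 (3.75 against 5.92, at least 1.66-fold) and Creb3l1 (4.28 against 6.44, at least 2.38-fold). On that array all 14 general epithelial genes and 7 of 12 crypt stem cell genes were also called lower than on wild-type ISCs. Their part in these calls was not tested. On the LncGata6 mutant array Sox9 (4.97 against 6.55), Sox4 (4.15 against 5.64) and Foxa1 (4.83 against 5.92) were called lower than on wild-type ISCs. Their mutant values lay under the limit, so the folds are lower bounds of 2.36, 1.26 and 1.53. The wild-type ISC value of Sox4 lay just above its limit of 5.62, for this call and for that against non-ISCs. Klf4 was called higher on the LncGata6 mutant array than on wild-type ISCs (8.71 against 7.19, 2.87-fold). In that comparison 6 of 12 crypt stem cell genes were called lower and 15 of 15 enterocyte products higher. Their part in these calls was not tested either. Spdef, which acts after Atoh1 in goblet and Paneth cells, stayed under the limit on all 4 arrays, at 5.06, 4.42, 5.42 and 4.34. Over all 70 genes, 3 were higher and 3 lower for LncGata6 mutant against wild-type ISCs, and 0 and 5 for Ehf knockout against wild-type ISCs. These counts were 5 and 0 for LncGata6 mutant against Ehf knockout, and 5 and 1 for wild-type ISCs against non-ISCs. The median differences in this order were -0.05, -0.32, 0.35 and 0.02. Shares of all genes called in each comparison are given above.

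**Figure D4:**
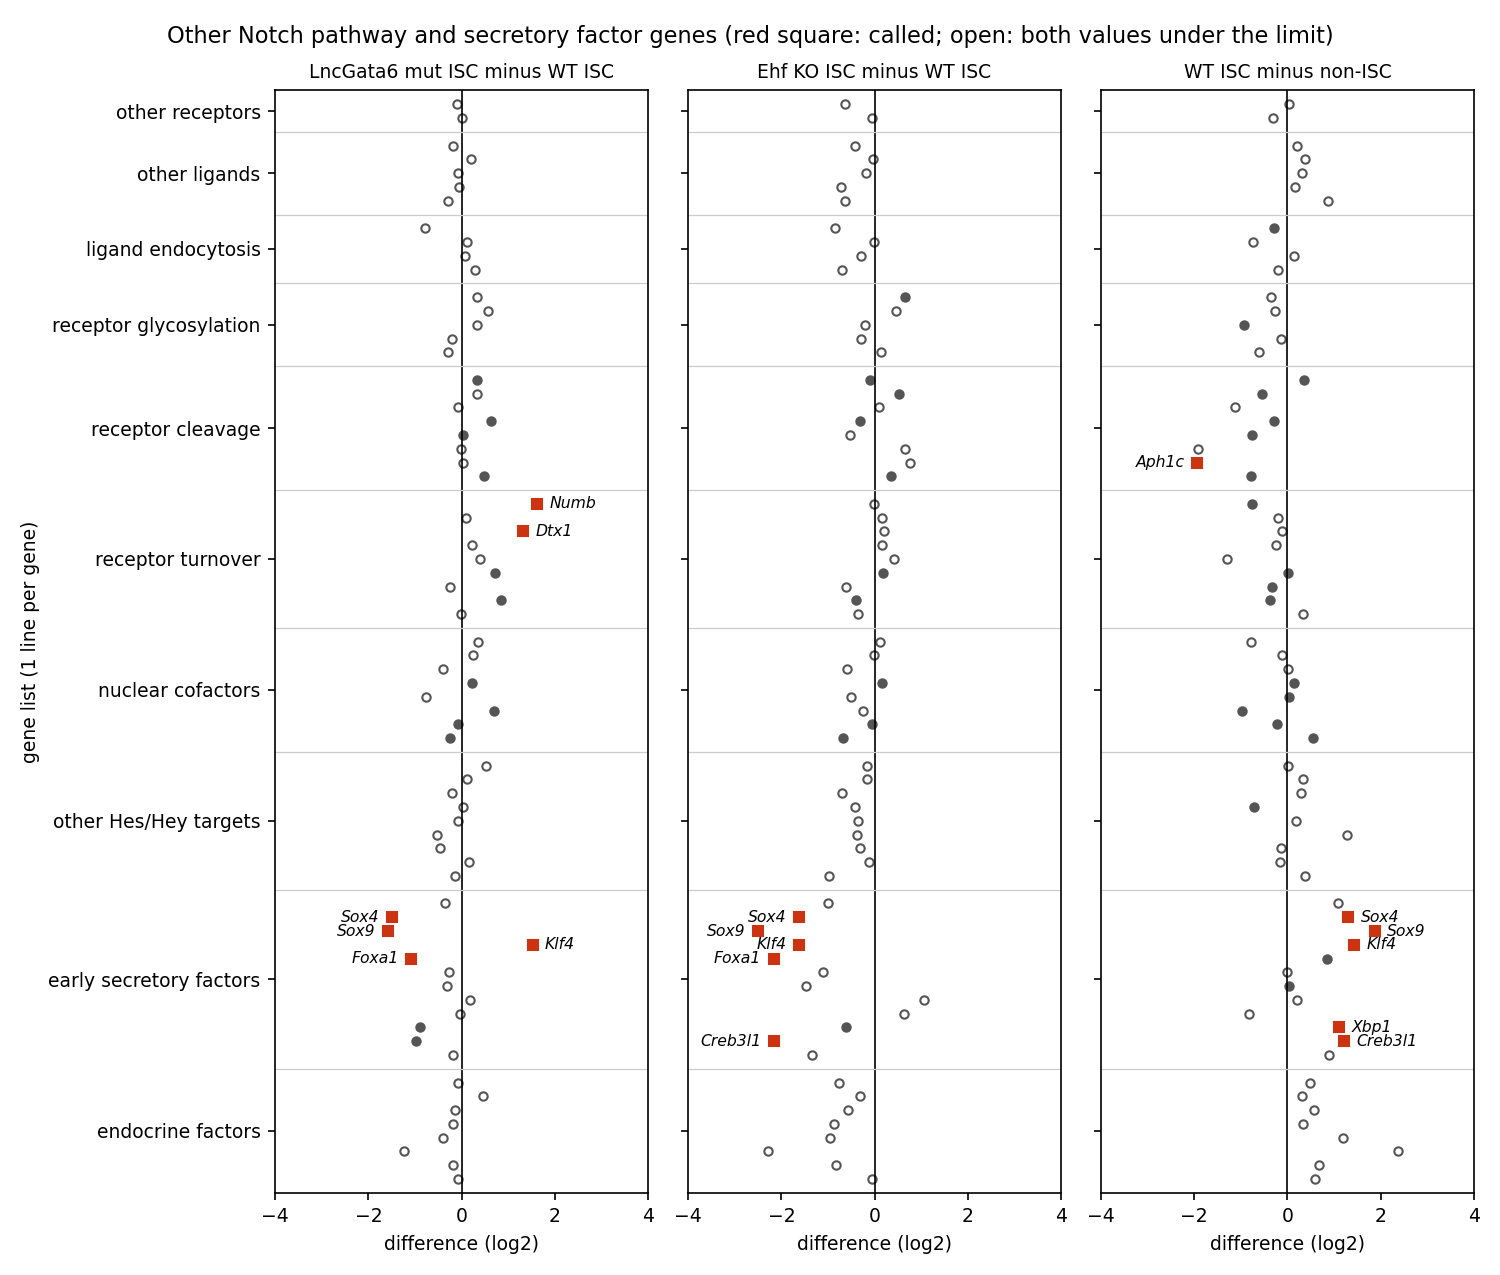
Difference of log2 values (horizontal axis) of 70 other pathway genes, grouped by role (vertical axis, 1 line per gene), for LncGata6 mutant and Ehf knockout against wild-type ISCs and for wild-type ISCs against non-ISCs. Called genes are red squares with names and lie mostly among the early secretory factors; Numb and Dtx1 are higher on the LncGata6 mutant array.

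Products of the secretory cells were also followed, since Atoh1 commits cells to make them. Goblet products had medians of 8.33 (LncGata6 mutant), 3.37 (Ehf knockout), 8.76 (wild-type ISC) and 4.96 (non-ISC), and general epithelial genes were low on the Ehf knockout array too, with 0 of 14 at the limit, as were enterocyte products (median 3.04). Paneth products had medians of 8.43, 2.90, 10.27 and 4.77 over the same arrays, and endocrine products 4.98, 3.19, 5.27 and 2.48. On the LncGata6 mutant array, where Atoh1 differed from wild-type ISCs by 0.13, 7 of 8 Paneth products were called lower, as with Pla2g2a (4.53 against 7.73) and Mmp7 (6.25 against 8.41). In that comparison 15 of 15 enterocyte products (median difference 3.84) and 10 of 10 T cell and intraepithelial lymphocyte genes (3.91) were called higher, and 6 of 12 crypt stem cell genes lower. Their part in the values of the secretory products was not tested. Goblet products went both ways there, with 2 of 12 higher, Zg16 (11.71 against 10.00) and Fcgbp (9.42 against 8.16), and 3 lower, among them Spink4 (8.26 against 10.24) and Agr2 (8.40 against 9.80). Endocrine products gave 1 higher, the neurotensin gene Nts (8.27 against 5.08), and 3 lower, including the glucagon gene Gcg (3.49 against 6.36). Tuft cell products reached the limit in 0 of 9 cases on both the LncGata6 mutant and the wild-type ISC array.

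Profiles most like those of the varying members were looked for among 9525 other genes that reached the limit on at least 1 array, by the root mean square difference of the 4 values after centring each gene on its own mean. With 4 arrays this is a loose measure. Nearest to Notch2 were the small nucleolar RNA Snord49b (0.05), the myosin motor gene Myo5a (0.06) and the predicted gene Gm22422 (0.06). Nearest to Hes1 were the predicted genes Gm4130 and Gm9847 (0.07 each) and the aminopeptidase gene Erap1 (0.07). Atoh1 was nearest to Nipal1 (0.12), the tensin gene Tns4 (0.14) and the inflammasome gene Nlrc4 (0.18). Nipal1 read 6.61, 4.16, 6.53 and 4.05 on the LncGata6 mutant, Ehf knockout, wild-type ISC and non-ISC arrays, the same bright and dim pairs as Atoh1.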

How the data were processed

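Total RNA of sorted cells was measured on 4 Clariom D arrays, 1 per group. The authors deposited 1 log2 value per feature and array. The submitters' processing notes name RMA and Affymetrix Power Tools without a version; a genome build is not given in the sources used here. The deposited columns still differed in level, with 75th percentiles of the named features between 4.60 and 5.26. No label states the log base; values between -0.18 and 13.13 fit a log2 scale.

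The table holds 72688 features. The platform annotation, with symbols updated through RefSeq (GRCm38.p6), gave exactly 1 symbol to 31269 of them; those with several symbols (1481) or with no symbol (39938) were not used. For the 441 genes with several features the one with the highest mean was used. Differences were computed in pandas 2.3.3, and limma 3.58.1 gave quantile normalization and cyclic loess as alternatives. Other alternatives were median centring, the limit, the size needed for a call, the mean of a gene's features and symbols without update. With 1 array per group no test was made, and the number of arrays limits precision. Genes named from each list were those called with the largest differences, up to 3 each way for pathway lists and 2 for cell type lists, and Lgr5, Olfm4 and Epcam give context. Other genes named outside the members, among them Adam10, Sox4, Xbp1 and every gene with no call, were picked with their values in view. Members, lists and limits were chosen with earlier results of these data known.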

Additional observations from a re-analysis of the deposited data

How the results depend on the processing

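Every called member kept its direction under median centring, quantile normalization and cyclic loess. The other alternatives left the difference of each member as it was, so they could not change a direction and bear only on the calls. Requiring a difference of 2 left Atoh1 in LncGata6 mutant against Ehf knockout as the single call among the 10 genes and gave 0 in every other count. Over all 30713 genes, 765 were then called higher in that comparison, and between 139 and 974 in each other count. Without a limit on the level, calls rose to 1 lower for LncGata6 mutant and 6 lower for Ehf knockout against wild-type ISCs. They rose to 2 higher for LncGata6 mutant against Ehf knockout, and 3 higher for wild-type ISCs against non-ISCs. Over all genes the matching counts were 1135, 2465, 2576 and 1774. The 75th percentile as limit gave 1 and 3 lower for LncGata6 mutant and Ehf knockout against wild-type ISCs. It gave 2 higher for wild-type ISCs against non-ISCs, and the shares over all genes are given above. A difference of 0.58 added Hes1, lower on LncGata6 mutant than on wild-type ISCs (1 called) and higher than on Ehf knockout (2 called). Over all genes these counts were 1665 and 2562. Median centring, quantile normalization and cyclic loess each gave 0 lower for wild-type ISCs against non-ISCs, beside 2010, 1794 and 2083 of all genes. Among the 70 pathway genes, calls without a limit on the level were 10 lower and 1 higher for Ehf knockout against wild-type ISCs. They were 9 higher for LncGata6 mutant against Ehf knockout, and 9 higher and 4 lower for wild-type ISCs against non-ISCs. Over all genes the counts in this order were 2465 and 1098, then 2576, then 1774 and 3255. A difference of 0.58 gave 7 higher and 5 lower for LncGata6 mutant and 1 higher for Ehf knockout against wild-type ISCs. It gave 7 lower for wild-type ISCs against non-ISCs. Over all genes the counts in this order were 1490, 1665, 1046 and 3429. The 75th percentile also gave 1 higher for Ehf knockout, beside 796 of all genes. A difference of 2 left 3 lower for Ehf knockout against wild-type ISCs, 1 higher for LncGata6 mutant against Ehf knockout and 0 elsewhere. Over all genes the first 2 of these counts were 449 and 765. Quantile normalization and cyclic loess gave 2 and 3 higher for LncGata6 mutant against Ehf knockout, beside 1349 and 1443 of all genes. Over all genes the share of calls that were higher went with the scaling: for LncGata6 mutant and for Ehf knockout against wild-type ISCs it was 50.5% and 36.6%, but 64.1% after cyclic loess and 52.5% after quantile normalization. For LncGata6 mutant against Ehf knockout it was 64.4%, but 53.1% after quantile normalization, and for wild-type ISCs against non-ISCs 29.3%, but 42.1%. The cause was not tested. Signal close to or under the negative-control limit restricts what can be said of all 10 genes. Of these, 5 reached it on no array, and Notch1, Hes1, Atoh1 and Rbpj exceeded it by at most 0.52. Notch2 exceeded it by up to 1.39 but reached it on only 2 arrays.

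No paired analysis was possible because each group has a single array.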
